A study of Mus musculus with 16 samples.

Results

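The baseline transcriptome of the nucleus accumbens is described here from the 4 libraries of male C57BL/6 mice that received saline for 4 days, chosen by their label alone, out of 16 libraries in all. The other 12 libraries were labelled with the same sex and strain. Their mice received arecoline, caffeine or nicotine for 4 days, with 4 libraries per compound. Saline is the vehicle in this design, so these 4 libraries are the level against which each compound is read. The labels give neither the dose nor the route. No label says that the 4 libraries came from separate animals, so each SD measures the spread between libraries, which may be technical. Levels of different genes are compared in FPKM, fragment counts scaled for transcript length and library total, and values are given for saline replicates 1 to 4 in that order or as mean ± SD (n = 4).

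The nucleus accumbens is the ventral part of the striatum. Most of its neurons are GABAergic medium spiny neurons, of which one class carries the dopamine receptor Drd1 with the peptides Tac1 and Pdyn, and another carries Drd2 with the adenosine receptor Adora2a and the peptide Penk. Sparse cholinergic and GABAergic interneurons work within this network, dopamine arrives in axons from the midbrain, and glutamate arrives in axons from cortex, amygdala, hippocampus and thalamus.

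The 4 saline libraries held 11.99 to 14.9 M estimated counts (13.8 ± 1.29 M), within the 9.04 to 24.3 M of the exposed libraries, and 12599 ± 53 genes reached 1 FPKM. Markers of the labelled tissue were present in each of them, with none of the 16 medium spiny neuron genes at 0. Replicate 3 stood apart. The summed FPKM of those 16 genes was 1539, 1385, 6301 and 1644, and all 16 were highest in replicate 3. Genes of cortical excitatory neurons showed the opposite order, with sums of 359, 383, 140 and 355 FPKM over 12 genes. Neurod6, a member of that list, stood at 27.95, 20.4, 3.59 and 28.3 FPKM, so cortical transcripts were present in every saline library. Levels and receptor orders given below are those of the dissected pieces, whose purity was not tested. In bulk tissue, fewer cells of a type and less RNA per cell cannot be told apart, and whether the dissected piece differed between libraries was not tested.

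Mitochondrially encoded transcripts, secreted glial proteins and enzymes of energy metabolism led the saline accumbens. The 13 mitochondrially encoded genes took 10.9, 12.2, 9.09 and 12.6% of all FPKM in saline replicates 1 to 4 (11.2 ± 1.58%). mt-Atp6, a subunit of the ATP synthase (mitochondrial chromosome, 7927 to 8607, mm10), was the most abundant transcript at 11985, 11042, 7690 and 11699 FPKM. mt-Co3 and mt-Co1, which encode cytochrome c oxidase subunits, averaged 8105 ± 1146 and 7124 ± 1025 FPKM. Each of the 13 was lowest in replicate 3, and mt-Nd6, the only one of them encoded on the light strand, had the lowest mean at 283 FPKM. The values of mt-Atp8 and mt-Atp6, and of mt-Nd4l and mt-Nd4, are uncertain because these genes overlap.

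Apoe, the lipid carrier that astrocytes secrete, was the most abundant nuclear gene (ENSMUSG00000002985, mm10 chromosome 7, 19696109 to 19699188). It stood at 4810, 4559, 4054 and 3361 FPKM in saline replicates 1 to 4. Cst3, a secreted inhibitor of cysteine proteases (chromosome 2, 148871722 to 148875692), followed at 4821, 4264, 3227 and 3143 FPKM. The order of these 2 genes was not the same in all 4 libraries, since Cst3 was higher in replicate 1. Fth1, the ferritin heavy chain, averaged 2789 ± 518 FPKM. Ptgds, the prostaglandin D synthase of meninges and oligodendrocytes (chromosome 2, 25466709 to 25470046), had a mean close to that of Fth1 but stood at 3951, 1548, 4572 and 436 FPKM. Its mean therefore describes none of the 4 libraries.

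The remaining 21 of the 25 most abundant nuclear genes lay between 2617 and 1259 FPKM on average. Enzymes of energy supply were among them, with Gapdh at 2617 ± 182, Aldoa at 2085 ± 251, the creatine kinase Ckb at 2018 ± 327, Cox4i1 of the respiratory chain at 1656 ± 324 and the ATP synthase subunit Atp5b at 1259 ± 71.7 FPKM. Calmodulin and the kinase it activates were present as Calm2 at 2107 ± 312 and Camk2a at 1354 ± 197 FPKM, beside Pcp4, which modulates calmodulin, at 1323 ± 258 FPKM. Myelin was represented by Mbp at 2024 ± 135 FPKM, and the cytoskeleton by Actb at 1889 ± 90.9, Tuba1a at 1560 ± 330 and the actin-binding Tmsb4x at 1294 ± 459 FPKM. Protein turnover and folding genes were Ubb at 2081 ± 508, the cyclophilin Ppia at 1609 ± 396 and the chaperone Hspa8 at 1307 ± 106 FPKM. Atp6v0c of the vacuolar proton pump, Selenow, Rtn1, Tspan7 and Cpe, which trims peptide hormones, lay between 1642 and 1388 FPKM. Gapdh, Fth1, Ppia, Ubb, Tuba1a, Tmsb4x and Calm2 have near-identical pseudogenes or paralogs, so their values depend on how shared reads were divided.

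**Figure D1:**
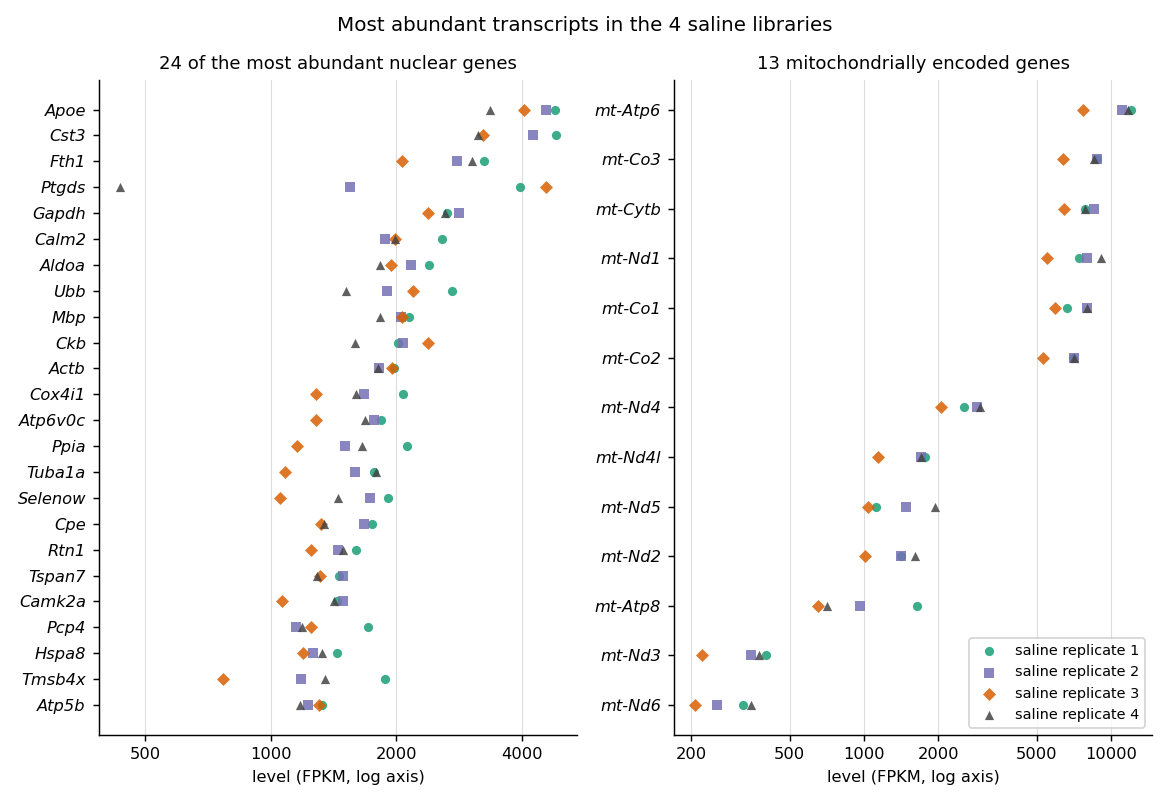
FPKM (log axis) of 24 of the 25 most abundant nuclear genes, on the left, and of the 13 mitochondrially encoded genes, on the right, with 1 point for each saline library. Points of Actb and Mbp nearly coincide, those of Ptgds span 436 to 4572 FPKM, and the replicate 3 point is the lowest for each mitochondrially encoded gene.

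Expression was concentrated in few genes. The 100 most abundant genes took 31.4, 31.2, 28.0 and 30.3% of FPKM in saline replicates 1 to 4. Between 406 and 541 genes held as much FPKM as all others together, and 40 to 49 genes reached 1000 FPKM. Summed by family, the nuclear genes of oxidative phosphorylation took 6.11 ± 0.77% of FPKM over 124 genes and the cytosolic ribosomal proteins 3.26 ± 0.38% over 85. Glycolytic enzymes took 2.31 ± 0.11% over 16 genes, amyloid precursor, apolipoprotein, tau and synuclein genes 1.31 ± 0.11% over 7, and synaptic SNARE and vesicle genes 1.01 ± 0.053% over 16. The alpha and beta tubulins took 0.984 ± 0.152%, ubiquitin genes 0.785 ± 0.116%, ferritin chains 0.700 ± 0.089% and neuropeptide and granin precursors 0.599 ± 0.114%. Replicate 3 was low in several of these families, since the tubulins summed to 5650, 5177, 3638 and 5325 FPKM and the ferritin chains to 4090, 3556, 2730 and 3693 FPKM. Tsc22d1, of the TSC22 family, was the most abundant gene that the authors' deposited annotation calls a transcription factor, at 272, 260, 445 and 278 FPKM.

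Single neuropeptide precursors differed widely between libraries, with a median ratio of 3.48 between the highest and the lowest library over the 15 that reached 10 CPM. Penk, the enkephalin precursor of indirect-pathway neurons (chromosome 4, 4133531 to 4138819), stood at 430, 353, 1683 and 467 FPKM in saline replicates 1 to 4. Tac1, the substance P precursor, stood at 224, 136, 629 and 200 FPKM, and Pdyn, the dynorphin precursor, at 35.3, 20.6, 239 and 40.9 FPKM. All 3 were highest in replicate 3, and the ratio of Tac1 to Penk differed less between libraries, at 0.521, 0.386, 0.373 and 0.428. Cartpt, which encodes the CART peptide (chromosome 13, 99898489 to 99901091), stood at 30.8, 4.73, 178.5 and 42.1 FPKM. Several peptides of interneurons and cortical neurons ran the other way, although Lhx6, Nos1 and Kit of the interneuron list were highest in replicate 3. So were Gad1 and Gad2, which GABAergic medium spiny neurons share with interneurons. Cck, the cholecystokinin precursor, stood at 932, 650, 112 and 663 FPKM. Sst, the somatostatin precursor, stood at 483, 301, 154 and 418 FPKM, and Vip at 56.7, 39.2, 5.98 and 34.7 FPKM. Each was lowest in replicate 3, as was Npy at 143 FPKM against 320 to 471 FPKM in the other saline libraries. Of 15 precursors that reached 10 CPM, 7 differed at least 4-fold between saline libraries, where 1.76% of all genes at that level did. Hcrt, Oxt and Avp, peptides of hypothalamic neurons, averaged 0.41 to 0.44 FPKM.

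Genes of GABA synthesis were the most abundant transmitter genes of local neurons, and replicate 3 again differed from the rest. Gad1, which makes GABA, stood at 131, 114, 234 and 122 FPKM, and Slc32a1, which loads it into vesicles, at 16.7, 13.7, 40.6 and 18.8 FPKM. Slc17a7, the vesicular glutamate transporter of cortical neurons (chromosome 7, 45163949 to 45176142), stood at 90.8, 98.0, 19.6 and 91.4 FPKM, whereas Slc17a6, its thalamic counterpart, averaged 1.73 ± 0.58 FPKM. The ratio of Gad1 to Slc17a7 was thus 11.9 in replicate 3 and 1.17 to 1.45 in the other 3 saline libraries. Chat, the enzyme of acetylcholine synthesis, stood at 1.65, 2.21, 8.56 and 1.91 FPKM, and Ache, which degrades acetylcholine, at 39.0, 35.1, 72.3 and 27.7 FPKM. Both were highest in replicate 3. Th, the first enzyme of dopamine synthesis, averaged 5.52 ± 1.78 FPKM and the dopamine transporter Slc6a3 0.50 ± 0.24 FPKM. The enzymes that clear dopamine were more abundant and steadier, with Maob at 22.2 ± 1.19 and Maoa at 10.0 ± 0.59 FPKM. Glial glutamate handling was led by Glul at 309 ± 45.2 FPKM, followed by the transporters Slc1a3 at 274 ± 33.7 and Slc1a2 at 244 ± 37.4 FPKM.

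Receptor subtypes were ranked by FPKM within 33 families, of which 28 had at least 2 members at a mean of 0.5 FPKM. In 19 of these 28 families the same member led in all 12 exposed and all 4 saline libraries, and in 21 it led in all 4 saline libraries. With 4 paired values the smallest two-sided exact p is 0.125, so the order of neighbours is given by how many libraries share it. Of 96 neighbouring pairs, 57 had the same order in all 4 saline libraries, of which 40 had it in all 12 exposed libraries as well and 47 kept it in CPM, without the scaling for length. The other 39 pairs did not keep the same order in all 4 saline libraries, and whether their members differ was not tested.

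Drd1, the excitatory dopamine receptor of direct-pathway neurons (chromosome 13, 54051183 to 54055705), led its family at 21.3, 19.9, 87.2 and 23.4 FPKM in saline replicates 1 to 4. Drd2, the inhibitory receptor of the indirect pathway, stood at 2.73, 1.85, 23.1 and 4.11 FPKM. Replicate 3 was above the other libraries for both, and the ratio of Drd1 to Drd2 was 7.81, 10.8, 3.78 and 5.69. Drd3, which is enriched in the ventral striatum, averaged 2.00 ± 1.59 FPKM, Drd5 1.76 ± 1.08 and Drd4 0.16 ± 0.08 FPKM. Drd2 exceeded Drd3 in all 4 saline libraries, and Drd3 exceeded Drd5 in 3 of 4, though in 1 of 12 exposed libraries and, in CPM, in 0 of 4 saline libraries.

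Chrm1, the Gq-coupled muscarinic receptor and a target of arecoline (chromosome 19, 8663789 to 8683587), stood at 50.2, 65.3, 52.2 and 52.9 FPKM. It made up 81.1 ± 6.54% of muscarinic FPKM. Chrm4, the inhibitory receptor of medium spiny neurons, stood at 5.11, 6.41, 17.4 and 7.39 FPKM and was higher in replicate 3, where Chrm1 was not. Chrm2 averaged 2.06 ± 0.24, Chrm3 1.37 ± 0.44 and Chrm5 0.44 ± 0.33 FPKM, and the order from Chrm1 to Chrm3 held in all 4 saline libraries in FPKM. In CPM, without the scaling for length, Chrm4 exceeded Chrm2 in 1 of 4.

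Among nicotinic subunits, Chrnb2 (chromosome 3, 89746195 to 89764632) and Chrna4, which assemble into the main high-affinity receptor of the brain, ranked first and second. Chrnb2 stood at 14.1, 14.04, 17.9 and 14.4 FPKM and Chrna4 at 8.69, 9.69, 5.36 and 11.8 FPKM. Chrna7, which forms receptors of its own, followed at 5.15, 6.68, 2.50 and 7.62 FPKM. Replicate 3 held the highest Chrnb2 and the lowest Chrna4 and Chrna7. The other 13 nicotinic genes averaged under 0.5 FPKM, and Chrnd of muscle was not detectable at this depth, with an estimated count of 0 in each saline library.

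Adenosine receptors showed no single leader over the 4 saline libraries. Adora1, the widespread inhibitory receptor (chromosome 1, 134199223 to 134235431), stood at 46.6, 51.2, 69.0 and 48.8 FPKM. Adora2a, the excitatory receptor of indirect-pathway neurons and, with Adora1, a target of caffeine (chromosome 10, 75316877 to 75334784), stood at 12.1, 13.2, 167 and 23.5 FPKM. The ratio of Adora2a to Adora1 ran from 0.012 to 2.33 in the exposed libraries and from 0.258 to 2.42 in the saline libraries, and Adora2a led in 2 of 12 exposed libraries and in 1 of 4 saline libraries. Their means, 54.1 for Adora2a and 53.9 for Adora1, hide this order. Adora2b averaged 5.22 FPKM and Adora3, a receptor of microglia in mice, 0.68 FPKM.

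Oprl1, the nociceptin receptor, led the opioid family in 3 of 4 saline libraries at 16.4, 12.7, 19.9 and 18.4 FPKM. Oprk1, the dynorphin receptor, stood at 4.85, 1.81, 20.1 and 5.82 FPKM and was level with Oprl1 in replicate 3. Oprm1, the target of morphine, averaged 1.64 ± 1.33 FPKM and Oprd1 1.14 ± 0.46 FPKM, with Oprm1 the higher in 6 of 12 exposed and 3 of 4 saline libraries, but in 0 of 4 saline libraries in CPM. Cnr1, the cannabinoid receptor of axon terminals, stood at 23.3, 32.3, 9.49 and 29.1 FPKM, with replicate 3 the lowest, and Cnr2 averaged 0.24 ± 0.21 FPKM.

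**Figure D2:**
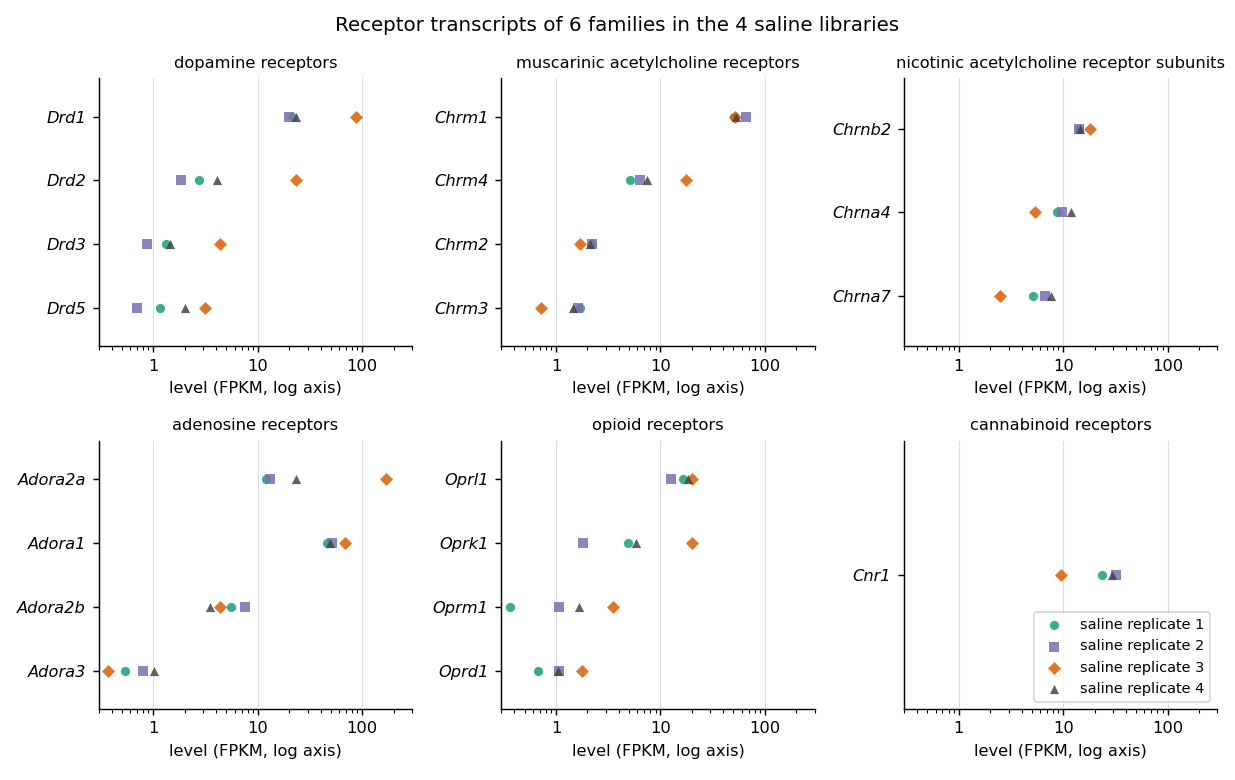
FPKM (log axis) of the members of 6 receptor families with a saline mean of at least 0.5 FPKM, with 1 point for each saline library. Replicate 3 lies above the other libraries for Drd1, Drd2, Adora2a, Oprk1 and Chrm4 and below them for Cnr1, Chrna4 and Chrna7.

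Subunits of the ionotropic glutamate and GABA-A receptors included several of the most abundant receptor genes. The AMPA subunit Gria2, which limits calcium entry (chromosome 3, 80681450 to 80802835), stood at 167, 190, 171 and 212 FPKM, followed by Gria1 at 86.1 ± 17.7, Gria3 at 60.3 ± 13.2 and Gria4, in that order in all 12 exposed and all 4 saline libraries. Grin1, the obligate NMDA subunit, led at 68.0 ± 5.97 FPKM over Grin2b at 26.3 ± 4.83 FPKM, although not when counts were left unscaled for length, where Grin2b exceeded it in all 4 saline libraries. The extrasynaptic GABA-A subunit Gabrd stood at 47.1, 58.9, 95.7 and 41.0 FPKM, with replicate 3 the highest. Gabbr1 exceeded Gabbr2, its partner in the GABA-B receptor, by 4.91-fold to 15.8-fold. Grm3, a metabotropic receptor of glia and terminals, averaged 64.5 ± 12.8 FPKM, above Grm5 at 47.3 ± 14.1 FPKM, in 7 of 12 exposed and 4 of 4 saline libraries, but in 0 of 4 saline libraries without the scaling for length. The glycine receptor beta subunit Glrb averaged 70.5 ± 12.7 FPKM.

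Some families were dominated by 1 gene of glial cells or of broad expression. Ntsr2, the neurotensin receptor of astrocytes (chromosome 12, 16653382 to 16660227), stood at 228, 247, 225 and 190 FPKM, the highest mean of the receptors ranked, and made up 92.5 ± 0.90% of its family. Ntrk2, the BDNF receptor, averaged 206 ± 37.6 FPKM and made up 90.4 ± 3.06%. S1pr1, a lipid receptor of astrocytes and vessels, averaged 69.5 ± 8.87 FPKM and made up 89.0 ± 1.09%, and Fgfr3 averaged 67.3 ± 6.98 FPKM. P2ry12, the purinergic receptor of microglia, averaged 52.0 ± 13.8 FPKM. Hrh3, the inhibitory histamine receptor of neurons, stood at 67.0, 67.9, 107 and 74.95 FPKM and was highest in replicate 3. Htr2c led the serotonin receptors at 34.7 ± 9.99 FPKM over Htr2a at 6.80 ± 1.71 FPKM. Among other receptors for neuropeptides, Adcyap1r1, the PACAP receptor, averaged 38.9 ± 6.69 FPKM. Lower means were found, with Cckbr at 20.3 ± 5.14, Sstr1 at 8.15 ± 2.42, Npy1r at 6.24 ± 1.304, Oxtr at 4.06 ± 2.87, Crhr1 at 2.87 ± 0.88 and Tacr1 at 2.31 ± 1.12 FPKM.

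Spread among the 4 saline libraries was measured as the ratio of the highest to the lowest library, on CPM scaled by TMM factors, for 10157 genes with a mean of at least 10 CPM. The median ratio was 1.40, with quartiles of 1.252 and 1.64. The ratio was at least 4 for 179 genes, or 1.76%, here called variable, and at most 1.1 for 299 genes, or 2.94%, here called steady. These counts describe how the lists were made and are not tests. The variable genes nearest the threshold had a ratio of 4.01 and the nearest gene outside it 3.998, and the steady list ended between 1.0998 and 1.10001.

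Most of the 20 most variable genes had their highest or lowest value in replicate 3. Of all genes at 10 CPM, 32.1% had their highest value there and 29.9% their lowest. Bpifb9b, of the BPI fold family, stood at 0.07, 3.19, 48.9 and 3.56 CPM in saline replicates 1 to 4, and Gh, growth hormone, at 73.5, 23.2, 0.28 and 3.52 CPM, a ratio of 265. Replicate 3 was highest for Bpifb9b and lowest for Gh. Cartpt stood at 34.9, 5.32, 195.4 and 46.3 CPM, a ratio of 36.7. Gpr6, an orphan receptor of indirect-pathway neurons, stood at 13.9, 6.74, 188 and 38.3 CPM, and Adora2a at 28.7, 26.6, 364 and 50.8 CPM. Trhr, Dsg1c, Serpina9, Prkch, Kctd8 and Scube3 also peaked in replicate 3, with ratios from 69.9 for Trhr to 12.6 for Scube3. The opposite order was seen for Slc30a3, which loads zinc into glutamatergic vesicles, at 253, 355, 28.1 and 154 CPM, for Bdnf, a neurotrophin of cortical neurons, at 33.0, 42.5, 3.26 and 32.6 CPM, and for Ly6g6e, Ccdc3 and Cort. Ttr, the thyroid hormone carrier of the choroid plexus, stood apart from these at 1.58, 1.14, 35.0 and 31.5 CPM. Fmod, a matrix protein, at 29.2, 16.5, 55.7 and 3.68 CPM, and the sulfate transporter Slc13a4 were lowest in replicate 4. Gm20388 stood at 12.98, 10.7, 30.1 and 0 CPM, and its annotated span of chromosome 8 (119910841 to 124345722) covers other genes, so its counts are uncertain.

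Each of the 178 variable genes with a name was assigned to the library at the end of the 4 values with the wider gap to its neighbour on the log2 scale. Replicate 3 was that library for 76 genes on the high side and 65 on the low side, and replicate 4 for 22 on the low side. The remaining 15 genes fell to replicates 1 and 2 or to the high side of replicate 4. Gaps were taken for the variable genes only. Replicate 3 held the highest value of 54.5% and the lowest of 36.5% of them, against 32.1 and 29.9% of all genes at 10 CPM. Replicate 4 held the lowest value of 20.8% of them, against 24.3% of all genes. Without replicate 3, 31 genes passed the same threshold over the other 3 libraries, 30 of them among the 179. The high side of replicate 3 held Ppp1r1b (DARPP-32), Rgs9, Pde10a, Penk and Drd1, and its low side Neurod6, Tbr1, Pvalb and Vip. The low side of replicate 4 held Ptgds, Dcn, Col3a1 and Slc6a13 of the meninges. Rgs9, Pde10a, Neurod6, Tbr1, Dcn, Col3a1 and Slc6a13 were named after their values were seen.

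**Figure D3:**
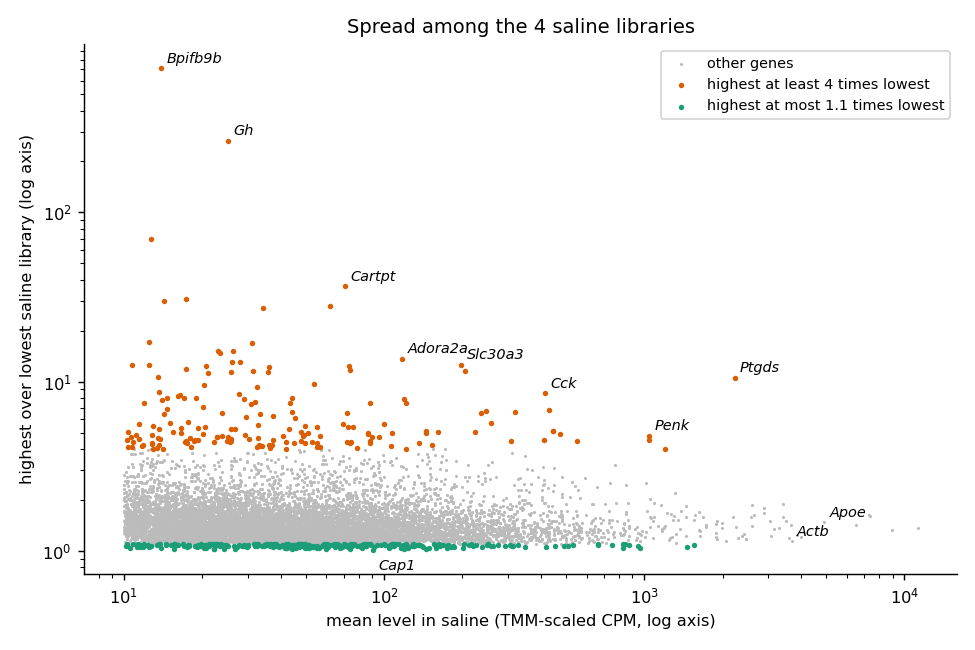
Ratio of the highest to the lowest saline library (log axis) against the mean CPM (log axis) for genes with a mean of at least 10 CPM, with variable genes in orange and steady genes in green. Ratios above 10 occur at low and at middle levels, Ptgds is variable at a high level, and Actb and Apoe lie among the other genes.

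Marker lists of medium spiny, cholinergic and cortical neurons gave the same pattern. Of the 16 medium spiny neuron genes, 13 were variable, against 1.76% of all genes at 10 CPM. Ppp1r1b (chromosome 11, 98348404 to 98357796) stood at 318, 341, 1455 and 322 FPKM. Cholinergic interneuron genes summed to 9.23, 7.77, 34.8 and 10.0 FPKM, and Chat and Slc5a7, the members that reached 10 CPM, were both variable. Of 9 cortical excitatory neuron genes at 10 CPM, 4 were variable and 8 were lowest in replicate 3, against 1.76 and 29.9% of all genes. The 10 genes of other interneurons divided, since 5 were highest and 5 lowest in replicate 3. Gad1, Gad2, Lhx6, Nos1 and Kit were highest there, and Sst, Npy, Vip, Pvalb and Calb2 were lowest. Gad1 and Gad2 are not particular to interneurons, since medium spiny neurons are GABAergic as well. The ratio of Slc17a7 to Ppp1r1b was 0.013 in replicate 3 and 0.284 to 0.287 in the other 3 saline libraries. Replicates 1, 2 and 4 were therefore close to each other by this measure. Meningeal and fibroblast genes divided the libraries differently, with sums of 4045, 1603, 4691 and 466 FPKM over 8 genes, nearly all of it Ptgds, and all 7 that reached 10 CPM were lowest in replicate 4. Choroid plexus and ependymal genes summed to 5.10, 4.19, 39.5 and 30.3 FPKM.

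Summed levels of glial and endothelial genes spanned a narrower range than those of medium spiny neurons. Oligodendrocyte genes summed to 3851, 3532, 3733 and 3383 FPKM over 12 genes and astrocyte genes to 2352, 2660, 2063 and 2016 FPKM over 10. Microglial genes summed to 667, 712, 504 and 576 FPKM and endothelial genes to 117, 124, 136 and 126 FPKM. None of the genes of these 4 lists was variable, a count near the 1.76% of all genes. Mural cell genes summed to 105, 92.9, 125 and 75.7 FPKM over 7 genes, and 1 of the 4 that reached 10 CPM, Acta2 of smooth muscle, was variable with a ratio of 7.47. Red blood cell genes summed to 335, 150, 241 and 126 FPKM, and Hba-a1 and Hba-a2 share reads. Olfactory sensory neuron genes summed to 267, 185, 263 and 186 FPKM over 6 genes, with Omp, their defining marker, at 0.23 to 1.27 FPKM. The 4 genes of the Y chromosome summed to 43.3, 42.5, 43.4 and 46.5 FPKM, as labelled for males, and Xist was not analysed here. In the exposed libraries, also labelled as male, these sums ran from 12.7 to 46.7 FPKM with a median of 40.3. The cause of the lowest sum was not tested.

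**Figure D4:**
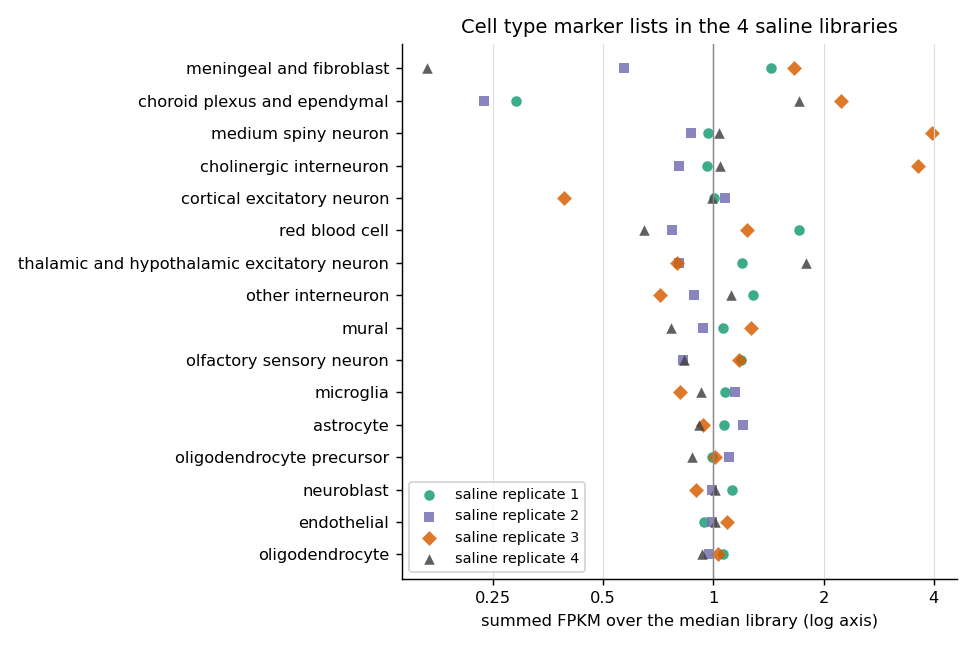
Summed FPKM of each cell type marker list in each saline library, divided by the median library (log axis). Replicate 3 lies above the other libraries for medium spiny and cholinergic neurons and below them for cortical neurons, replicate 4 lies below for meningeal genes, and all 4 libraries lie close together for oligodendrocyte and endothelial genes.

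Genes driven by activity or the time of day were compared in the same way. Of 20 immediate early genes at 10 CPM, 4 were variable, namely Bdnf, Nr4a2, Nptx2 and Egr4, against 1.76% of all genes. Bdnf, Nr4a2 and Nptx2 were lowest in replicate 3 and Egr4 in replicate 4. Of the 20 genes, 9 were highest and 4 lowest in replicate 3, against 32.1 and 29.9% of all genes. Fos stood at 13.5, 14.2, 25.4 and 20.9 FPKM, Arc at 27.2, 32.7, 71.7 and 35.4 FPKM, and Nr4a1 at 18.8, 23.9, 71.2 and 43.6 FPKM. Of 12 circadian genes, 0 were variable, near the 1.76% of all genes, and 10 were highest in replicate 3, as were 32.1% of all genes at 10 CPM. Among the 10 was Per1 at 20.2, 27.4, 49.5 and 27.2 FPKM. Dbp, an output gene of the clock, stood at 48.2, 47.4, 66.6 and 25.2 FPKM.

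Steady genes served general functions of the cell. Cap1, which recycles actin monomers (chromosome 4, 122859047 to 122886056), was the steadiest at 91.0, 91.2, 90.1 and 90.4 CPM. Its CV was 0.55%, below the 2.83% that counting alone gives at its mean count. A CV below the counting CV was found for 186 of the 299 steady genes (62.2%), against 3.17% of all 10157 genes. The 19 genes that followed had ratios of 1.02 to 1.04. They included Ints2 of the Integrator complex, Ssr1 of the translocon of the endoplasmic reticulum, the elongator subunit Elp2, the Golgi proteins Golt1b and Tgoln1, the mitochondrial elongation factor Gfm1, the exoribonuclease Dis3l, the acetyltransferase Kat8 and the proteasome subunit Psmd1 at 198, 199, 205 and 203 CPM. Hey1 and Sox9, transcription factors of glia, were also among them, Sox9 at 81.5, 84.6, 81.3 and 82.1 CPM. Of the 107 steady genes with a mean count of at least 1000, 89 had a CV above the counting CV.

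Genes often used to normalise qPCR were neither variable nor steady by these thresholds, at 0 of 15 for each, which is near the 1.76% and 2.94% of all genes. Their median ratio was 1.34, against 1.40 for all genes. Actb, Gapdh and Ywhaz had ratios of 1.14, 1.19 and 1.19, whereas Ppia had 1.85 and the transferrin receptor Tfrc 2.03. Ppia stood at 2116, 1510, 1159 and 1652 FPKM. Among structural genes, Actg1 at 821, 775, 816 and 829 FPKM and the vesicle fusion gene Vamp2 at 650, 629, 648 and 667 FPKM were steady.

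Pathways of the deposited annotation with at least 30 genes at 10 CPM were ordered by the median ratio of their genes. Aminoacyl-tRNA biosynthesis was the most even of 218 pathways with a median ratio of 1.22 over 43 genes, followed by fatty acid degradation at 1.27. Olfactory transduction, which shares calmodulin, kinase and phosphodiesterase genes with striatal signalling, was the least even at 2.28 over 41 genes. Neuroactive ligand-receptor interaction followed at 1.82 over 103 genes, then morphine addiction at 1.81 and cocaine addiction at 1.71. Of those 103 genes, 15 were variable and 0 steady, against 1.76 and 2.94% of all genes.

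Promoter windows were compared between the lists, since variable genes moved together by library. RefSeq windows from 250 bases before to 50 bases after each start (GRCm38.p6) were found for 135 of 178 variable and 243 of 299 steady genes. The median number of CpG dinucleotides per window was 14 for variable genes, 22 for steady genes and 21 for all genes at 10 CPM. A GC box (GGGCGG) was present in 49.5% of variable, 69.6% of steady and 63.1% of all windows of genes at 10 CPM, on either strand. The TATA box (TATAAA) was present in 6.70, 6.96 and 6.73% and the CCAAT box (CCAAT) in 30.9, 38.3 and 37.6% of the same sets. The cyclic AMP response element (TGACGTCA) was present in 2.06% of variable, 3.16% of steady and 3.17% of all windows of genes at 10 CPM. Over all 32851 windows of the table the shares were 35.7% for the GC box, 13.6% for the TATA box, 37.4% for the CCAAT box and 1.79% for the cyclic AMP response element. A match is a description of the letters and not a site.

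Windows of 4 genes that were extreme in spread are printed. They do not follow the medians of their lists, since the Cartpt window has more CpG than the Cap1 window. Cartpt (chr13:99900634-99900933, minus strand) and Gpr6 (chr10:41072241-41072540, minus strand) were variable and highest in replicate 3, Vip (chr10:5638968-5639267, plus strand) was variable and lowest there, and Cap1 (chr4:122886027-122886326, minus strand) was the steadiest gene. Each is given 5′ to 3′ from RefSeq (GRCm38.p6), with matches to the 4 motifs, on either strand, in capitals. These genes were chosen after their values were seen.
Cartpt: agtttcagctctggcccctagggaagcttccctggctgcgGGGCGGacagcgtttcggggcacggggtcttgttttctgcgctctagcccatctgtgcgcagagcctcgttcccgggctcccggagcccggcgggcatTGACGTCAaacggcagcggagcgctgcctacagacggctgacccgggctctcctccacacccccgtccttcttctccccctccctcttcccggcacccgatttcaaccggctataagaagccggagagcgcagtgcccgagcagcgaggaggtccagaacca
Gpr6: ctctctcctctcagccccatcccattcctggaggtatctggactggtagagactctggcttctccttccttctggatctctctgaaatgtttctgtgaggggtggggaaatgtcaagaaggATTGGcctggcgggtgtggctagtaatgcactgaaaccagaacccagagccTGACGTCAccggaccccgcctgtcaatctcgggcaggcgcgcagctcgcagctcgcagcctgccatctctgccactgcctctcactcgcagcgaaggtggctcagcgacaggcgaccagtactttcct
Vip: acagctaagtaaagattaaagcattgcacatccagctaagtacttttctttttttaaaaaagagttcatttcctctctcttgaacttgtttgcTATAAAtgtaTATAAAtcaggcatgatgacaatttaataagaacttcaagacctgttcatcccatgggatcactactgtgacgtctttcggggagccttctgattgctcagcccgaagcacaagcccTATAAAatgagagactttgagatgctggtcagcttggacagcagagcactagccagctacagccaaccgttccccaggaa
Cap1: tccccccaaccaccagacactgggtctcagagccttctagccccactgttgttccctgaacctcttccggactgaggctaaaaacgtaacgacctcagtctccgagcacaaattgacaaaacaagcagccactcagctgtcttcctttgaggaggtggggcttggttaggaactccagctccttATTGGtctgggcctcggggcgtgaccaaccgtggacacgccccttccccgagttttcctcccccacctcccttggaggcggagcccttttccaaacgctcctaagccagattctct
The Cartpt window holds a GC box and a cyclic AMP response element among 26 CpG dinucleotides. The Gpr6 window holds a CCAAT box and a cyclic AMP response element, with 13 CpG. The Vip window holds 3 TATA boxes and 4 CpG, and the Cap1 window 1 CCAAT box and 11 CpG. No match overlaps another in these 4 windows.

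The lists chosen on saline were then read in the compound groups, which the choice did not use. The 179 variable genes had a median SD of log2 CPM of 1.00 in the arecoline libraries, 0.417 in the caffeine libraries and 0.373 in the nicotine libraries, against 1.04 in the saline libraries that chose them. Chosen without saline replicate 3, the 31 variable genes had 1.23 in nicotine. All genes at 10 CPM had 0.195 in arecoline, 0.140 in caffeine, 0.174 in nicotine and 0.214 in saline. Of the variable genes, 101 (56.4%) also spanned at least 4-fold within arecoline, 32 (17.9%) within caffeine and 34 (19.0%) within nicotine, against 1.92, 0.473 and 0.994% of all genes. The summed FPKM of medium spiny neuron genes ranged from 531 to 6113 over the 12 exposed libraries, with a median of 828. In the 4 saline libraries it ranged from 1385 to 6301, so the lowest saline sum lay above the exposed median. The part of this sum in the spread was not tested.

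Steady genes kept a smaller spread than all genes in each compound group. Their median SD of log2 CPM was 0.155 in arecoline, 0.122 in caffeine and 0.144 in nicotine, against 0.048 in saline. The share within 1.1-fold was 9.03% in arecoline, 8.70% in caffeine and 6.35% in nicotine, against 3.79, 8.03 and 4.24% of all genes.  H13, a signal peptide peptidase, and Gdi2, a regulator of Rab proteins, were the most even over all 16 libraries, with ratios of 1.16 and 1.18 (chosen after their values were seen).

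**Figure D5:**
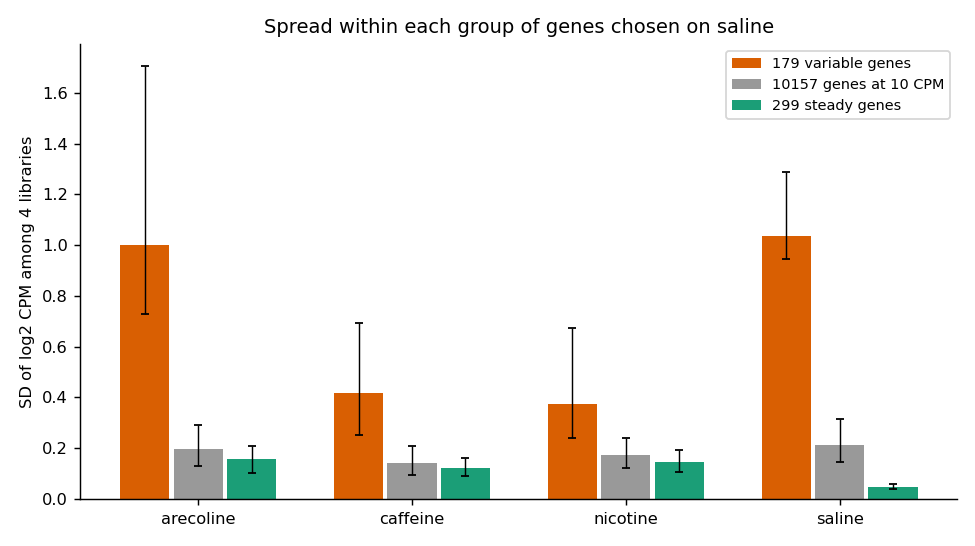
Median SD of log2 CPM among the 4 libraries of each group, with bars for the 179 variable genes, all 10157 genes at 10 CPM and the 299 steady genes, and quartiles as error bars. Variable genes reach 1.00 in arecoline and 1.04 in saline and about 0.4 in caffeine and nicotine, and steady genes lie at 0.122 to 0.155 outside saline.

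Levels in the exposed libraries were set against saline in a single contrast, the mean of the arecoline, caffeine and nicotine groups minus saline. Counts of baseline list members that passed are read beside the shares of all genes tested. By edgeR's quasi-likelihood test at an adjusted p under 0.05, 62 of 14674 genes (0.423%) were higher and 105 (0.716%) lower in the exposed libraries. Without saline replicate 2 no gene passed, with 2107 genes at an unadjusted p under 0.05. Each call made with all 16 libraries therefore passed the threshold only with that library included, while no named fold change changed sign without it. The count was 288, 80 and 77 without saline replicates 1, 3 and 4 and 36 to 578 without 1 exposed library, and it moved by over 1.5 times for each library left out except arecoline replicate 2 and caffeine replicate 3. Among the 25 most abundant nuclear genes 0 passed, and 1 of 13 mitochondrially encoded genes did. mt-Co1 averaged 7989 ± 1057 CPM in the exposed libraries (SD, n = 12) and 11085 ± 1542 CPM in the saline libraries (SD, n = 4), which is -0.49 ± 0.10 on the log2 scale (SE; edgeR's adjusted p = 0.0293).

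Of 149 receptor genes tested, 0 were higher and 3 lower, against 0.423 and 0.716% of all genes tested. The median log2 difference of receptor genes was -0.16, against -0.0027 for all genes. Ntsr2 averaged 211 ± 31.4 CPM in exposed and 308 ± 35.5 CPM in saline libraries, a log2 fold change of -0.56 ± 0.11 (edgeR, adjusted p = 0.0268). Htr4, a serotonin receptor that raises cyclic AMP, averaged 3.39 ± 2.25 CPM in exposed and 9.92 ± 3.01 CPM in saline libraries, a log2 fold change of -1.60 ± 0.33 (edgeR, adjusted p = 0.0350). S1pr1, whose call held in only 5 of 22 alternatives, averaged 163 ± 21.1 CPM in exposed and 214 ± 31.9 CPM in saline libraries, a log2 fold change of -0.40 ± 0.09 (edgeR, adjusted p = 0.0497). The dopamine, muscarinic, nicotinic, adenosine, opioid and cannabinoid families had 0 members past the threshold, a count near those shares of all genes. Drd1 ranged from 2.14 to 80.8 FPKM, with a median of 5.44, in the exposed libraries and from 19.9 to 87.2 FPKM in the saline libraries.

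None of the 179 variable genes passed, at a median log2 fold change of -0.55, a wide spread in saline being what chose them. Of all genes tested, 0.423% were higher and 0.716% lower. Of the 299 steady genes 7 were higher and 1 lower, and their low spread in saline, which enters the test, was also what chose them. Dnajb1, a co-chaperone, averaged 94.7 ± 11.4 CPM in exposed and 66.5 ± 0.776 CPM in saline libraries, a log2 fold change of 0.49 ± 0.07 (edgeR, adjusted p = 0.0112). The others that were higher were Usp21, Ddn, Polr2d, Vamp2, Cnot9 and Dnajc30, with log2 fold changes of 0.32 to 0.52. Over 22 alternatives Usp21 and Ddn passed in 21, Dnajc30 in 12, Polr2d in 10, Cnot9 in 6 and Vamp2 in 3. Cpt1a, of fatty acid import into mitochondria, was lower at -0.57 ± 0.11 (edgeR, adjusted p = 0.0268). Ddn, Usp21, Polr2d, Cnot9, Dnajc30 and Cpt1a were chosen after their values were seen. Of the other lists, the chaperones Hspa1a and Hspa5, the vesicle protein Syn1 and Rpl7l1 were higher and the secreted proteins Clu and Trf lower. Hspa1a passed in 19 of 22 alternatives, Trf in 13, Clu in 11, Syn1 in 10, and Hspa5 and Rpl7l1 in 9 each. Hspa1a averaged 33.3 ± 9.19 CPM in exposed and 16.7 ± 3.86 CPM in saline libraries, and shares reads with Hspa1b. Syn1 averaged 901 ± 141 CPM in exposed and 610 ± 76.4 CPM in saline libraries, and Trf, the transferrin of oligodendrocytes, 218 ± 66.0 CPM in exposed and 323 ± 43.2 CPM in saline libraries. The oligodendrocyte list, which holds Trf, had a median log2 difference of -0.54, and the astrocyte list had -0.35. Oligodendrocyte genes summed to 3383 to 3851 FPKM in saline libraries, against a median of 2378 FPKM in exposed libraries. Whether Trf, Ntsr2 or S1pr1 differed beyond such shifts was not tested.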

How the data were processed

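Trizol extraction, oligo-dT priming with template switching, PCR and NovaSeq sequencing made the libraries, per the labels' protocols, which do not mention strandedness. Among the tools in the submitters' processing notes are RSEM, StringTie 1.3.1, HISAT2, Bowtie2 2.2.8 and fastp 0.18.0, beside the build mm10, without their roles or order. Per the file headers, the authors deposited estimated counts and FPKM for 22337 genes in each library. Estimated counts as deposited are not scaled for depth, and 88.2 to 89.9% of them were exactly whole in saline. FPKM values as deposited are scaled by the authors for transcript length and library total. Implied lengths differed at least 1.5-fold between saline libraries for 135 of 8176 genes with at least 200 counts in each library (1.65%). Identifiers of 22283 genes matched GENCODE M21 on mm10. All columns matched a label, and 0 were left out.

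Levels of different genes were compared in FPKM. Spread was measured on CPM from counts scaled by TMM over the 4 saline libraries, without a pseudocount, except for SDs of log2 values, where 0.5 was added. Exposed and saline libraries were compared in all 16 with edgeR 4.0.16 (limma 3.58.1, R 4.3.3) on rounded counts, with TMM, filterByExpr, a mean for each group and Benjamini-Hochberg adjustment over 14674 genes. CPM in that comparison was scaled over 16 libraries. The counting CV is that of a Poisson count of the same mean, which covers counting error only, since no molecular identifiers are mentioned. Both procedures were tested on simulated data. No pair of saline libraries agreed within sampling noise (chi-square per degree of freedom 15.3 to 69.2 over 6 pairs).

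Genes named were the 25 most abundant nuclear and all mitochondrially encoded genes, the 20 most variable and 20 steadiest, leading receptor members, and members of 78 lists, 73 of them hand-written with 500 of 502 genes in the table. The members and lists were chosen with earlier results of these data known. A few genes are not reported here. Alternatives covered scaling, filters, units, tools, a replicate block and each library left out.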

Additional observations from a re-analysis of the deposited data

Results flagged for a closer look

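Values in which 1 saline library stood far from the other 3 were sought by the gap of the highest or lowest library to its nearest neighbour, divided by the range of the 4. Of 172 values examined, 21 had a gap past Dixon's 95% critical value for 4 samples. Chance alone puts about 1 in 20 groups there. That rate does not apply to genes examined because they were among the most variable of these same libraries, and many of the 21 values describe the same cells, so they are not independent. Replicate 3 was the library apart in 18 of them, above the others in 14 and below in 4.

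Replicate 3 was above the others for the summed FPKM of medium spiny neuron genes (0.947 of the range) and cholinergic interneuron genes (0.916), and for the FPKM of Drd1 (0.948), Drd2 (0.894), Drd3 (0.834), Adora2a (0.927, or 0.928 in CPM), Tacr3 (0.944) and Chrnb2 (0.917). It was above them as well for the CPM of genes chosen for their spread, Bpifb9b (0.929), Dsg1c (0.924), Prkch (0.900), Serpina9 (0.898) and Kctd8 (0.865). It was below the others for the summed FPKM of cortical excitatory neuron genes (0.885) and of mitochondrially encoded genes (0.839), and for the FPKM of Htr2a (0.927) and Camk2a (0.835).

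Replicate 1 was above the others for Calm2 (0.845), for Pcp4 (0.8292) and for the summed FPKM of proteasome genes (0.836). The cause of these gaps was not tested.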

How the results depend on the processing

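The share of the 100 most abundant genes was 21.8% on estimated counts and 22.8% without mitochondrially encoded genes, and the mitochondrial share was 5.47% on counts, since FPKM weights short transcripts. These shares ran from 29.8 to 30.9% and from 10.7 to 11.9% with each saline library left out. The 179 variable genes became 661 at a mean of 1 CPM and 1368 with no filter, and 31 to 154 with a saline library left out. The 299 steady genes became 750 to 1168 with 1 of 4 libraries left out, as a range over 3 libraries is narrower. Families with 1 leader numbered 19 to 26 over all alternatives. Chosen without saline replicate 3, the 31 variable genes had a median SD of 1.23 in nicotine, against 0.343 to 0.407 when another saline library was left out. The 167 genes that differed between exposed and saline libraries became 680 with DESeq2 (305 higher, 375 lower), 111 with limma on log2(FPKM + 0.1) and 0 to 578 with a library left out, the lowest without saline replicate 2 and the highest without nicotine replicate 2. The causes of these last shifts were not tested. With the replicate number as a block the count was 285 (107 higher, 178 lower). Same-numbered libraries correlated between -0.276 and 0.490 over 24 pairs, 8 of them above 0.1, and 6 of 16 libraries correlated best with their own number. Whether same-numbered libraries share more than a label cannot be told from these values. Of the 19 most variable genes with a ratio, 8 stayed past the threshold without replicate 3 and 17 without replicate 4, and all 19 in the other alternatives that kept the filter. Of the 20 steadiest, 17 stayed on FPKM. Over 22 alternatives Ntsr2 passed in 19, mt-Co1 in 14, Htr4 in 14 and S1pr1 in 5. No named fold change between exposed and saline libraries changed sign, whereas some receptor orders did in CPM. The median CV of all genes at 10 CPM was 15.0%, against a median of 4.16% from counting alone. Gm20388, at 0 in 1 library, has no ratio and was left out here.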
